A study of Danio rerio with 3 samples.

Results

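Smooth muscle actin and a calponin were followed section by section through the hearts of zebrafish embryos. The pair consists of the row acta2 (ENSDARG00000045180) and a row that the reference table names CNN3 (ENSDARG00000029856). They are 2 of the 16023 gene rows in the tables of the 3 hearts, and were taken by their identifiers from the deposited counts, by a rule that uses no measured value, though the pair was picked with earlier results of these data known. The capitals of CNN3 mean that the reference table gives this row the symbol of the human gene. The study's own source table uses the name cnn3a for a different row, ENSDARG00000008359, so the CNN3 row described here is not that gene.

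All 3 samples were wild-type hearts of the TL strain at 48 hours post fertilization (2 dpf), with no treatment and no transgene. Hearts were dissected alive, straightened, frozen and cut into 10 µm sections, and the RNA of each section was barcoded and amplified (tomo-seq, which uses the CEL-seq protocol). Heart 1 was cut from the outflow tract to the inflow, hearts 2 and 3 the other way, giving 40, 48 and 29 sections. Each heart is 1 animal and is the replicate (n = 3), and sections of a heart are not replicates of each other.

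acta2 encodes an actin of the contractile apparatus of smooth muscle and of the mural cells that wrap vessels. In chick and mouse embryos it is also made for a time by early heart muscle. Calponins bind actin filaments and the protein named CNN3 in humans, acidic calponin, is known from smooth muscle and from many non-muscle cells. In the zebrafish the outflow tract gains smooth muscle around its wall as the heart matures, while the chambers are walled by heart muscle.

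Hearts 1, 2 and 3 gave 5889097, 5243516 and 2590278 gene reads, and 7, 9 and 13 sections held fewer than 10000. Levels are reads of a gene per 10000 gene reads. The windows, in section numbers of heart 1, were outflow tract 4 to 10, ventricle 12 to 18, AV canal 19 to 26, atrium 27 to 32 and sinoatrial region 33 to 39. Hearts 2 and 3 were laid on this scale by the middle sections of the ventricular myosin vmhc and the atrial myosin myh6. Of the 9 heart muscle markers, which include vmhc and myh6, 8 or 9 were read in every window of every heart except the outflow tract of heart 3, which held 5, at a summed level of 59.5 to 440 per 10000 apart from the outflow tract of hearts 1 and 2, where they stood at 8.12 and 1.98. The outflow tract window of heart 3 stands apart, with 14700 gene reads against 1667108 and 2895368 in the other hearts, and it held heart muscle markers at 440 per 10000. Its name comes from its position on the scale, not from its markers, as holds for all windows of hearts 2 and 3. The outflow tract window of heart 2 held skin markers at 41.0 per 10000. In heart 1 this window lies within the first 10 sections, which the paper takes as most likely the arterial pole without heart muscle.

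acta2 was read from the ventricle to the venous end of each heart and hardly at all at the arterial end. In heart 1 it gave 1079 reads in 19 of 40 sections, the first of them section 12 and the last section 36. Among those sections its level ran from 0.0461 per 10000 in section 26 to 21.3 in section 33, with a median of 2.80. The 373 reads of section 33 were 34.6% of all acta2 reads of that heart.

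All 7 ventricular sections of heart 1 held acta2, at 1.09 to 3.85 per 10000, and sections 20 to 23 of the canal held it at 0.416 to 1.33. It was read again in the atrium, at 4.17 in section 29 and 8.33 in section 31. Sections 30 and 32, next to these, held no read. Section 4, at the arterial end, was the deepest without an acta2 read, with 524825 gene reads, which allows a level of up to 0.0572 per 10000.

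Heart 2 held 444 acta2 reads in 18 of 48 sections. The 176 reads of section 55, at the venous end, were 39.6% of them. The highest level, 24.1 per 10000, was in section 57, from 35 reads, and section 63 in the atrium held 20.04 from 38 reads. In the ventricle of this heart 4 of 9 sections held acta2, at 0.912 to 2.44 per 10000. At the arterial end sections 89, 90 and 93 held 8, 14 and 7 reads, at 0.203, 0.200 and 0.0633 per 10000.

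Heart 3 gave 1490 acta2 reads in 12 of 29 sections, and section 21, in the atrium, held 546 of them, or 36.6%, at 27.2 per 10000. Section 28, the deepest of this heart with 711407 gene reads, held 385 reads at 5.41 per 10000. The highest level of all, 68.2, came from a shallow section, section 18, with 51 acta2 reads among 7477 gene reads. In each of the 3 hearts, then, a single section of the atrial or sinoatrial window gave 34.6% to 39.6% of the acta2 reads.

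**Figure D1:**
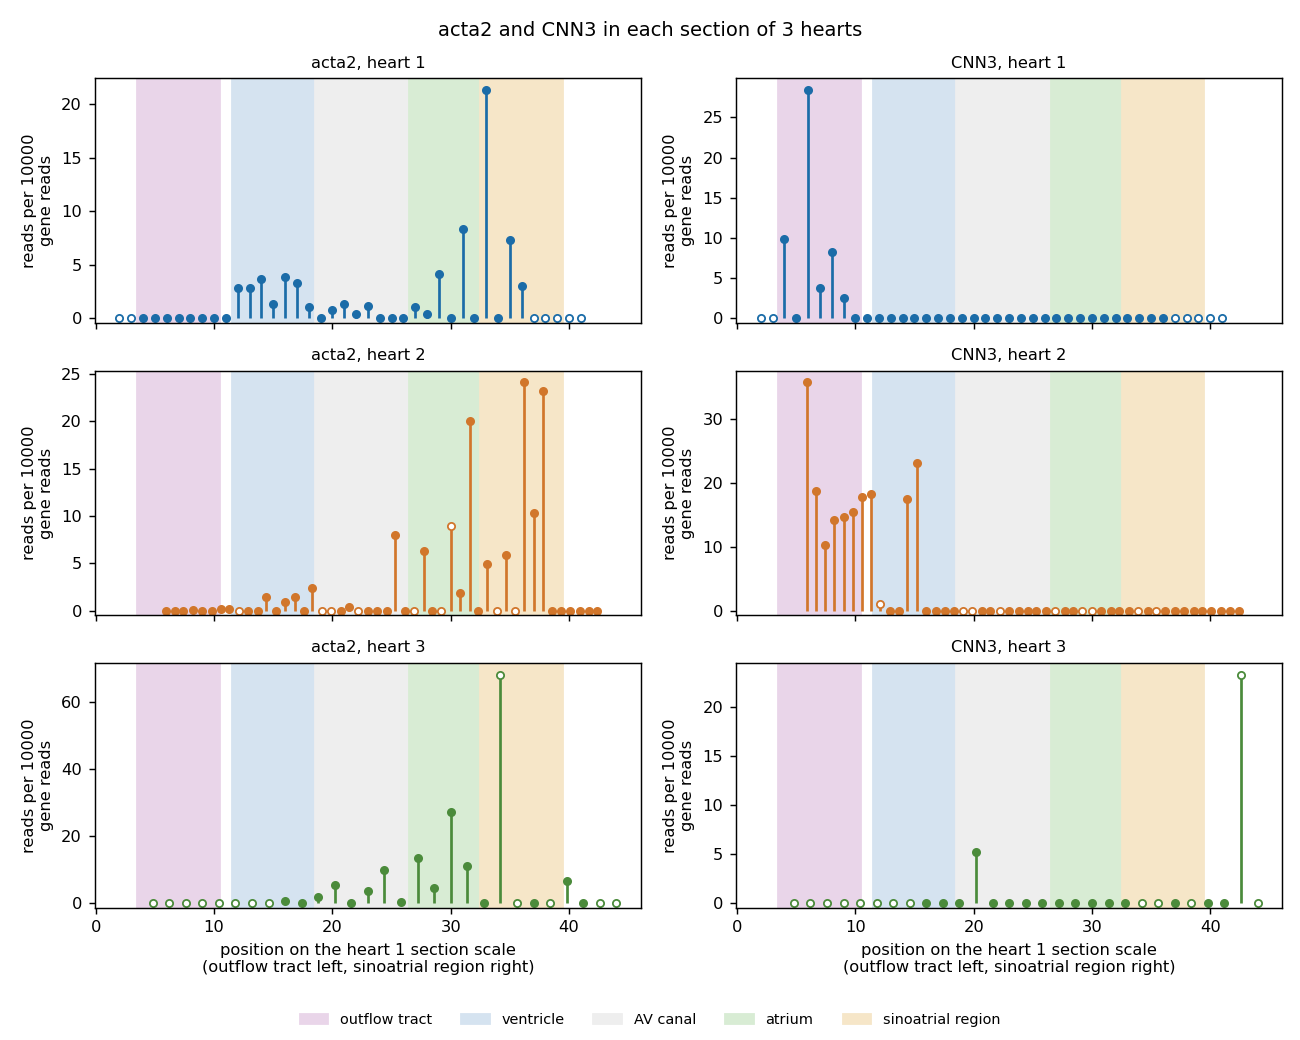
Level of acta2 (left) and CNN3 (right) in reads per 10000 gene reads for each section of hearts 1, 2 and 3 (rows), against the position on the section scale of heart 1. Open circles are sections under 10000 gene reads and shading marks the 5 windows. acta2 lines stand from the ventricle to the right and CNN3 lines stand at the left in hearts 1 and 2, while CNN3 of heart 3 has lines in 2 sections.

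CNN3 reads lay at the arterial end in hearts 1 and 2, while heart 3 had CNN3 reads in 2 sections. Heart 1 gave 1752 CNN3 reads in 6 of 40 sections, and 1748 of them, or 99.8%, lay in the outflow tract window. Sections 4, 6, 7, 8 and 9 held 518, 902, 19, 187 and 122 reads. Their levels were 9.87, 28.4, 3.79, 8.32 and 2.58 per 10000. Section 5 lies among them and held none, and section 10 held none either. The other 4 reads were in section 21, in the canal.

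Heart 2 gave 6956 CNN3 reads in 11 of 48 sections, all from section 84 to section 96. Every section from 89 to 96 held the gene, at 10.3 to 35.7 per 10000, and section 96, the last cut, had the highest level from 568 reads. The most reads, 1575, came from section 93, which is also the deepest of the 3 hearts with 1106493 gene reads. Sections 89 and 90, with 722 and 1240 reads, fall between the outflow tract and ventricle windows and so count in neither. Further in, sections 84 and 85 in the ventricular window held 166 and 107 reads, at 23.02 and 17.5 per 10000, and the sections between them and section 88 held none.

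Heart 3 gave 377 CNN3 reads in 2 of 29 sections. Of these, 370 were in section 28, which lies in the canal window and held 5.20 per 10000. The other 7 were in section 12, a section of 3005 gene reads at the venous end. The outflow tract window of heart 3, where heart muscle markers stood at 440 per 10000, held no CNN3 read. By counting error alone its 14700 gene reads allow a level of up to 2.04 per 10000, but empty sections occurred at greater depth. In heart 1 section 5 held none in 30455 gene reads, between sections at 9.87 and 28.4. Whether heart 3 held less CNN3 there than hearts 1 and 2 cannot be told.

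**Figure D2:**
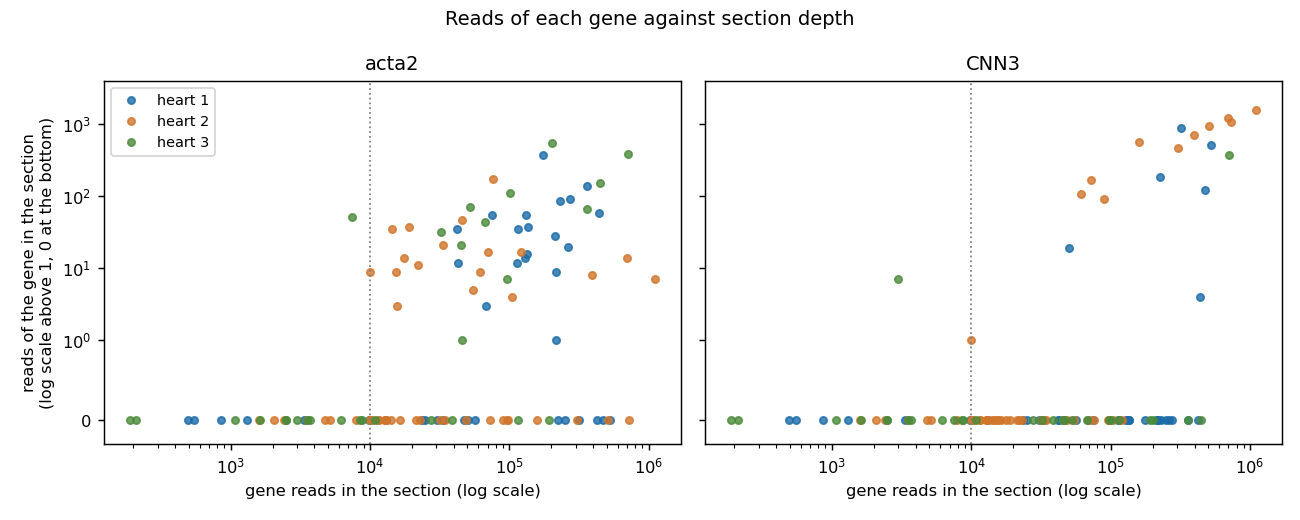
Reads of acta2 (left) and CNN3 (right) in a section against the gene reads of that section, both on a log scale with 0 at the bottom, colored by heart. The dotted line marks 10000 gene reads. Of the sections right of that line, 6, 10 and 1 hold CNN3 and 19, 17 and 11 hold acta2 in hearts 1, 2 and 3, and the others lie at 0.

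acta2 and CNN3 shared few sections. Over sections of at least 10000 gene reads, both were read in 1 of 33 sections in heart 1, in 4 of 39 in heart 2 and in 1 of 16 in heart 3. Pearson correlations of their levels across these sections were -0.16, -0.24 and 0.0049, and Spearman correlations were -0.37, -0.18 and 0.14. These are descriptions of sections that share a library and differ in depth. In heart 1 the shared section was section 21, with 58 acta2 reads and 4 CNN3 reads. In heart 3 it was section 28, which holds 98.1% of the CNN3 reads of that heart and 385 acta2 reads.

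MYL7, a myosin light chain of heart muscle, had reads in all 19, 17 and 11 of the sections of at least 10000 gene reads that held acta2 in hearts 1, 2 and 3. MYL7 was, however, read in 30 of 33, 34 of 39 and 14 of 16 such sections in all. Across them the levels of acta2 and MYL7 had Pearson correlations of 0.10, -0.084 and 0.11. With the atrial myosin myh6 the correlations of acta2 were 0.37, 0.40 and 0.48 over 33, 39 and 16 sections. In whole sections, fewer cells of a type and less RNA per cell cannot be told apart.

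By window, acta2 was highest in the sinoatrial region of hearts 1 and 2 and in the atrium of heart 3. Its sinoatrial level was 12.1, 9.51 and 8.92 per 10000 in hearts 1, 2 and 3, and its atrial level was 2.41, 6.51 and 18.7. The canal held 0.530, 0.590 and 3.92 and the ventricle 2.94, 1.13 and 0.312. The outflow tract held 0, 0.0242 and 0, from 7 reads in heart 2. The sinoatrial values of the hearts lie close together, whereas atrial values span 2.41 to 18.7. However, the sinoatrial value of heart 3 rests on 51 reads in 1 of its 5 sections there. In heart 1, 373 of the 463 sinoatrial reads are in section 33, at the edge of the window.

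The mean levels over hearts put these windows in the order sinoatrial region (10.2 ± 1.71, SD, n = 3), atrium (9.22 ± 8.50), AV canal (1.68 ± 1.94), ventricle (1.46 ± 1.34) and outflow tract (0.00806 ± 0.0140). The atrium was above the canal and the ventricle above the outflow tract in 3 of 3 hearts. In heart 3, however, the ventricle at 0.312 lies under the 2.04 that its outflow tract window could hold unseen. The sinoatrial region was above the atrium in 2 of 3 and the canal above the ventricle in 1 of 3, so no heart followed the whole order. No neighbours in this order differed beyond their spread by an exact two-sided sign-flip permutation test, which with 3 hearts cannot go below p = 0.25. By that exact test p was 0.25 for the atrium against the canal and for the ventricle against the outflow tract, 1 for the other 2 pairs, and 1 for all 8 pairs of both genes after adjustment.

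CNN3 was highest in the outflow tract of hearts 1 and 2, at 10.5 and 16.3 per 10000, with 0 in heart 3. The ventricle held 0, 6.47 and 0 and the canal 0.0204, 0 and 2.27. The atrium and the sinoatrial region held no CNN3 read in any of the 3 hearts, where limits of 3 reads allow 0.0687 to 0.275 in the atrium and 0.0786 to 0.524 in the sinoatrial region. In order the means were 8.93 ± 8.26 (SD, n = 3) in the outflow tract, 2.16 ± 3.74 in the ventricle and 0.762 ± 1.30 in the canal, with 0 in the other 2 windows. For neighbours in this order the same exact permutation test, which could not separate any pair, gave p from 0.5 to 1.

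**Figure D3:**
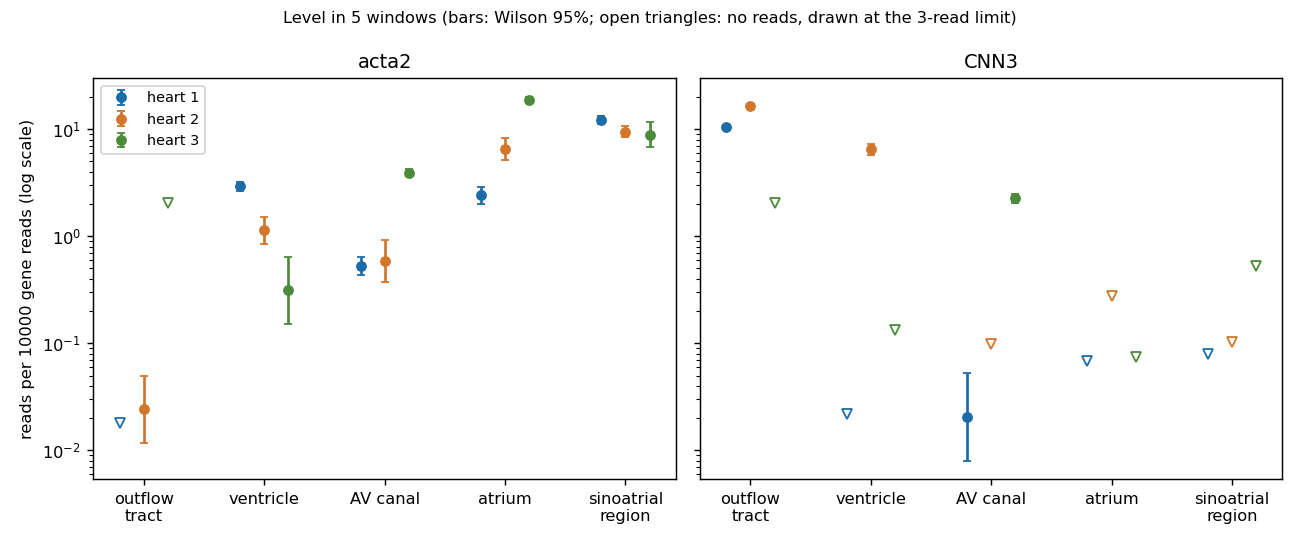
Level of acta2 (left) and CNN3 (right) in the 5 windows of each heart, in reads per 10000 gene reads on a log scale. Bars are Wilson 95% limits for counting error, and open triangles are windows with no read, drawn at the limit that 3 reads would set. The 3 sinoatrial points of acta2 lie between 8.92 and 12.1 and all CNN3 points of the atrium and the sinoatrial region are open.

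Regions were then compared on reads summed per heart, with the heart as a block, in a count model over all rows. With 3 hearts the model misses most changes that are not very large, though it can call smaller ones in rows of low spread. In simulated counts for the outflow tract comparison it recovered 0% of 4-fold, 6.35% of 16-fold and 81.2% of 256-fold changes. The outflow tract against the rest of the heart asks what marks the arterial pole. acta2 was lower there. In heart 1 it gave 0 reads among 1667108 against 1079 among 4221989 in the rest, which makes it at least 142-fold lower. In heart 2 the levels were 0.0242 against 1.86 per 10000, a ratio of 0.0130. In heart 3 they were 0 against 5.79, at least 2.83-fold lower by counting error alone. Section 27 of that heart, however, held no acta2 read in 38766 gene reads, between sections at 3.49 and 5.41. Whether heart 3 held less acta2 in the outflow tract window cannot be told. The fitted log2 difference was -8.06 ± 1.59 (SE), or -7.39 relative to the median of all rows (adjusted p = 0.00601). In this comparison 1.13% of 13835 rows were called, 1.07% as lower in the outflow tract. The split of calls depends on the scaling: 8 rows were higher and 148 lower there, 39 and 216 with total gene reads, which moved the median of all rows from -0.67 to -0.11. For the ventricle it was 40 higher and 18 lower, 19 and 26 with total gene reads (median from 1.04 to 0.74), and for the sinoatrial region 0 and 7, then 3 and 4 (median from -2.998 to -2.62). acta2 kept its direction in all 4 comparisons with either scaling.

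The call rests on hearts 1 and 2, since without heart 1 the adjusted p was 0.993 and without heart 2 it was 0.301, and limma on log2 values gave 0.905. Heart muscle markers moved with acta2. The list of 9 was at 8.12 and 1.98 per 10000 in the outflow tract of hearts 1 and 2 with all 9 markers read there, against 59.5 to 290 in the other windows of those hearts, and actn2b, a TTN row and nppa were called lower by the count model and none by limma. vmhc and myh6, which placed hearts 2 and 3, are left out of these calls. The part of heart muscle in the result was not tested. In heart 3 that window held 5 of the 9 at 440 per 10000 and no acta2 read, where by counting error alone up to 2.04 per 10000 could go undetected.

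CNN3 levels in the outflow tract against the rest were 10.5 against 0.00947 in heart 1, 16.3 against 9.52 in heart 2 and 0 against 1.46 in heart 3. The ratio was 1107 in heart 1 and 1.71 in heart 2, where the rest includes sections 89 and 90 next to the window. With sections outside the 5 windows left out, the ratio in heart 2 was 6.72, from 274 reads in the rest, and the adjusted p was 0.817. Heart 3 sets no direction, since its floor of 2.04 in the outflow tract is above the level of its rest. The fitted log2 difference of 1.02 ± 1.24 (SE) did not pass the test (adjusted p = 0.949). In this comparison 0.0578% of rows were called higher. Without heart 3, whose outflow window is the shallow one, the adjusted p was 4.13e-08. That fit holds only hearts 1 and 2, with ratios of 1107 and 1.71, so its p is no measure of agreement between them. Without heart 1 the sign turned (adjusted p = 0.993).

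Skin markers were read with CNN3 in hearts 1 and 2, at a lower level in heart 1. The 5 of them (krt4, krt5, cyt1, epcam and cldni) summed to 41.0 per 10000 in the outflow tract of heart 2, with all 5 read, and to 0.282 in heart 1, where krt4 and krt5 had 42 and 5 reads and the others, epcam among them, were at 0. Of those krt4 reads 41 are in section 4, which holds 518 CNN3 reads, and 1 is in section 6, which holds 902. Across sections of at least 10000 gene reads CNN3 and krt4 had Pearson correlations of 0.29 and 0.35 and Spearman correlations of 0.46 and 0.42 in hearts 1 and 2, over 33 and 39 sections. In heart 3 they were -0.058 and 0.090 over 16 sections, of which 1 held CNN3 and 8 held krt4. That section, section 28, held 138 krt4 reads at 1.94 per 10000. The part of skin markers in the result was not tested. In heart 2 krt4 was at 1.11 in section 84 and 0 in section 85, where CNN3 was at 23.02 and 17.5. Mural cell markers were at 3.78, 3.71 and 21.1 in the outflow tract of the 3 hearts, the last from 1 of 6 markers. In the other windows they were at 1.44 to 2.65 in heart 1, 1.57 to 6.64 in heart 2 and 0 to 1.73 in heart 3. The 6.64, in the sinoatrial region of heart 2, is above the outflow tract value of that heart.

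The comparison of the ventricle (sections 12 to 22) with the atrium (27 to 37) used the wider windows of the study, in which the ventricle takes in canal sections 19 to 22 and the atrium takes in sinoatrial sections 33 to 37. In these windows acta2 stood lower in the ventricle of each heart. Of the 568 acta2 reads of the atrial window of heart 1, 463 lie in the sinoatrial sections. The levels were 1.81 against 6.96 in heart 1, 0.938 against 8.11 in heart 2 and 3.44 against 17.9 in heart 3. These are ratios of 0.261, 0.116 and 0.193. The fitted log2 difference of -2.04 ± 0.55 (SE), or -3.08 relative to the median of all rows, did not pass the threshold of 0.05 (adjusted p = 0.0572). In this comparison 0.556% of 10435 rows were called, 0.172% as lower in the ventricle.

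The call depends on the settings. Total gene reads in place of fitted factors gave an adjusted p of 0.00577, limma on log2 values 0.0183, and an earlier version of the model, which asked for a minimum level in 2 or more sums, 0.0313, while without any one heart it was 0.197 to 0.820. In the narrower windows heart muscle markers stood at 189 to 396 per 10000 in the atrium and 287 to 346 in the ventricle of the 3 hearts, and acta2 was at 2.94 in the ventricle against 2.41 in the atrium of heart 1, the other way round. With the windows kept apart, an alternative chosen after seeing the data, the adjusted p was 0.854.

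CNN3 was read in each of these wider ventricular windows but in no atrium, from 4 reads (heart 1), 274 reads (heart 2) and 370 reads (heart 3). Its ventricular levels were 0.0147, 4.94 and 2.77 per 10000. In hearts 2 and 3 it was at least 35.2-fold and at least 41.3-fold higher in the ventricular window, and in heart 1 the 4 reads set no difference. It passed the test (adjusted p = 5.68e-06), where 0.383% of rows were called higher. Since no atrial sum held a read, that test used no spread of CNN3 between hearts, only a spread taken from other rows. Its p is thus no measure of agreement between hearts. The reads come from section 21 of heart 1 and section 28 of heart 3, which lie in the canal, and from sections 84, 85 and 88 of heart 2, the one heart with CNN3 reads in the narrower ventricular window. With the windows kept apart the adjusted p was 0.506, without heart 2 it was 0.588, and limma gave 0.262.

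The AV canal held less acta2 than the chambers, which here are the ventricle (12 to 18) and the wider atrial window (27 to 37) with its sinoatrial sections. In heart 1 those sections hold 463 of the 975 acta2 reads of the chambers. The levels were 0.530 in the canal against 4.43 in heart 1, 0.590 against 3.47 in heart 2 and 3.92 against 11.996 in heart 3, ratios of 0.120, 0.170 and 0.327. The fitted log2 difference was -2.33 ± 0.53 (SE), or -2.31 relative to the median of all rows (adjusted p = 0.0380). In this comparison 0.145% of 10998 rows were called, 0.109% as lower in the canal. Against the ventricle alone the canal was lower in hearts 1 and 2 and higher in heart 3, as the window levels above show.

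The call on the canal was lost without heart 1 (adjusted p = 0.960), without heart 2 (0.689), with hearts 2 and 3 shifted by +1 section (0.880), without the replicate block (0.119), in limma (0.347) and with the sinoatrial sections left out of the chambers (0.440). Left out in this way, the chambers held 2.81, 2.24 and 12.1 per 10000 in hearts 1, 2 and 3, still above the canal of each. CNN3 gave 4, 0 and 370 reads in the canal and 0, 274 and 0 in the chambers of hearts 1, 2 and 3, so no heart held it in both. It did not pass the test (adjusted p = 0.927), where 0.0364% of rows were called higher.

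acta2 stood higher in the sinoatrial region than in the rest of each heart, without passing the test. The levels were 12.1 against 1.12 in heart 1, 9.51 against 0.335 in heart 2 and 8.92 against 5.68 in heart 3. The ratios were 10.9, 28.4 and 1.57. The fitted log2 difference was 2.12 ± 1.098 (SE), or 5.11 relative to the median of all rows, which was -2.998 (adjusted p = 0.495). Taken relative to that median, the difference exceeds the ratio of every heart, so it is no measure of the fold. No row was called higher in this comparison (0%), by the same test, with 29 higher at an unadjusted p under 0.05 and 3 higher in limma. Without heart 3 the adjusted p of acta2 was 0.0120. The sinoatrial reads of heart 3, 51 in all, lie in a single section. The rest takes in the outflow tract, where acta2 was at 0, 0.0242 and 0 per 10000. That window gave 1667108 of the 5507614 gene reads of the rest in heart 1 and 2895368 of 4951345 in heart 2. In the atrium next to the sinoatrial region acta2 was at 2.41, 6.51 and 18.7. The sinoatrial level was thus above the atrial level in hearts 1 and 2 and below it in heart 3.

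CNN3 had no read in the sinoatrial region of any heart, among 381483, 292171 and 57203 gene reads, against 1752, 6956 and 377 reads in the rest. By counting error alone it was at least 40.5-fold, 137-fold and 2.84-fold lower there in hearts 1, 2 and 3. In heart 3, sections 26 and 29 of the rest also held no CNN3 read, in 444625 and 360005 gene reads. The bound of that heart thus shows no difference between regions. CNN3 passed the test (adjusted p = 4.87e-05), where 0.0506% of 13835 rows were called lower. Here too the empty sums left no spread of CNN3 between hearts, so the p rests on a spread taken from other rows. The atrium next to the sinoatrial region held no CNN3 read either. In hearts 1 and 2 the reads of the rest lie mostly at the arterial end, and in heart 3 they are the 370 of canal section 28 and the 7 of section 12, beyond the sinoatrial region. Without heart 1 the adjusted p was 0.419 and without heart 2 it was 0.354, and limma gave 0.409.

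**Figure D4:**
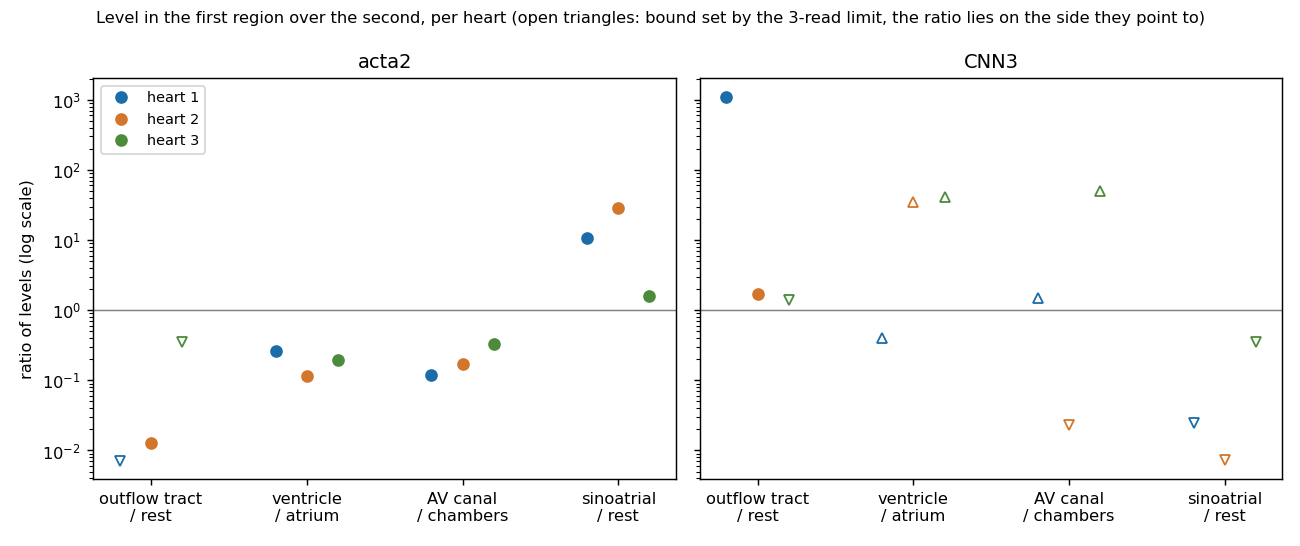
Ratio of the level in the first region to that in the second for acta2 (left) and CNN3 (right) in each heart, on a log scale with a line at 1. Open triangles mark windows without a read, placed at the bound that 3 reads set, with the ratio on the side to which they point. acta2 points lie below 1 in the first 3 comparisons and above 1 in the sinoatrial region, except that the outflow tract of hearts 1 and 3 gives only bounds.

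Other genes of the contractile apparatus of smooth muscle were described as a list of 18 rows. In the outflow tract against the rest, 4 of the 17 rows tested were lower and 0 higher, where 1.07% of all rows were lower and limma called 0 of the list, at a median log2 difference of -3.67 against -0.67 for all rows. Besides acta2 the lower ones were a TAGLN row (ENSDARG00000045408), a LMOD1 row (ENSDARG00000077261) and a DES row (ENSDARG00000058656). Transgelin binds actin filaments, leiomodin nucleates them and desmin is an intermediate filament protein of all muscle. The DES row, at -5.93 ± 1.35 (SE, adjusted p = 0.0385), held 0.636 per 10000 in the outflow tract of heart 1 and 0.0380 in heart 2. The other TAGLN row (ENSDARG00000033466) was read there in each heart, at 1.04, 2.14 and 21.1 per 10000, and did not pass the test (0.55 ± 1.25, adjusted p = 0.969).

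Among list rows with many reads, CNN2, another calponin, held 5.61, 4.01 and 0 per 10000 in the outflow tract (log2 difference -1.23 ± 1.27, SE, adjusted p = 0.916). A row of MYL9, a regulatory myosin light chain (ENSDARG00000008030), held 1.74, 0.594 and 7.48 there (-2.13 ± 1.25, SE, adjusted p = 0.742). In the ventricle against the atrium 0 of 17 rows of the list passed in the count model, at a median of 0.01 against 1.04 for all rows, with 1 higher and 1 lower before adjustment (p under 0.05) and 1 lower in limma. In the canal acta2 was the only one of 17 that passed. In the sinoatrial region 0 of 17 passed in the count model, with 0 higher and 1 lower before adjustment and 0 in limma. Of all rows, the count model called 0.556%, 0.145% and 0.0506% in the ventricle, canal and sinoatrial comparisons. At those shares 0 of 17 is no result about the list.

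The actin family held 8 rows, of which 2 of the 7 tested were lower in the outflow tract, against 1.07% of all rows, and limma called 0. They were acta2 and ACTC1 (ENSDARG00000057911), named for the actin of heart muscle, which gave 0, 6 and 0 reads there (-9.11 ± 1.63, SE, adjusted p = 0.00371). The cytoplasmic actins actb1 and actb2 did not pass (-1.30 ± 1.23 and -0.49 ± 1.20, SE). An ACTA1 row (ENSDARG00000036371), named for the actin of skeletal muscle, was higher in the ventricle than in the atrium (2.46 ± 0.53, SE, adjusted p = 0.0102). This was 1.41 relative to the median of all rows, in the wider windows of the study. There 0.383% of all rows were called higher, and limma called 0 actin rows higher and 1 lower. Muscle actins are near-identical in sequence, and how the counting split reads between them is not stated, so acta2, ACTA1 and ACTC1 values are uncertain in that respect.

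The calponin and transgelin family held 5 rows. In the outflow tract 1 of 5 was lower, the TAGLN row named above, and 0 were higher, where 1.07% of all rows were lower and limma called 0 of the 5. The row that the study calls cnn3a was read in all 5 windows of hearts 1 and 2. Its levels were 4.199, 2.53 and 0 per 10000 in the outflow tract, 2.04, 3.64 and 0.579 in the ventricle and 7.84, 4.89 and 9.61 in the sinoatrial region. It did not pass in any of the 4 comparisons.

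SRF, the transcription factor that acts on actin and other muscle genes, gave 124, 247 and 0 reads. Of its list of 6 rows with cofactors, 0 of 6 were called by the count model or by limma in the outflow tract, in the canal and in the sinoatrial region, with 1 lower in the canal at an unadjusted p under 0.05. The count model called 1.13%, 0.145% and 0.0506% of all rows there, so 0 of 6 is no result about the list. FHL2, a LIM protein that binds SRF, was lower in the ventricle than in the atrium (-1.92 ± 0.41, SE, adjusted p = 0.00304). In that comparison 0.172% of all rows were called lower, and limma called 1 of the 6 lower. The 12 mural and outflow tract genes, of which 8 were tested in the ventricle and canal comparisons, gave 0 calls in the count model and in limma in the 4 comparisons. The count model called 1.13%, 0.556%, 0.145% and 0.0506% of all rows in the outflow tract, ventricle, canal and sinoatrial comparisons. At such shares 0 calls in a list this short are no result about these genes. In the outflow tract the median of the 12 was 0.68 against -0.67 for all rows, with 1 higher and 0 lower before adjustment. NOTCH3, a Notch receptor of mural cells, held 1.63, 0.926 and 0 per 10000 there. FOXF1, a forkhead factor of mesenchyme that was picked after its values were seen, stood at a log2 difference of 4.63 ± 1.41 (SE, adjusted p = 0.222). Its section levels in heart 1 had a Pearson correlation of 0.95 with those of CNN3 over 33 sections, and 0.48 over 39 sections in heart 2, and both genes were read in 3 and 5 of those sections.

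Of 4788 rows with at least 30 reads in every heart, those most like acta2 over the 15 sums of 5 windows in 3 hearts were LMOD2 (Pearson r = 0.91), atp2a2a (0.88), oaz2b (0.85), RBPMS2 (0.84) and podxl (0.83). Values were log2 levels, with 0.5 reads added to each sum, centered within each heart. A window without a read thus takes a value set by its depth. Rows that share empty windows are alike in part through depth. LMOD2 is a leiomodin of heart muscle and atp2a2a the calcium pump of its sarcoplasmic reticulum. LMOD2 had 0 reads in the outflow tract of all 3 hearts and reads in every other window. podxl, which encodes a sialomucin of the cell surface, was at 29.1 in the sinoatrial region of heart 2. MYL7 ranked 47, with r = 0.69, and CNN3 had r = -0.71 with acta2.

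The rows most like CNN3 by the same measure were SMC5 (0.92), NAT16 (0.90), ENSDARG00000090651 (0.89), FZD8 (0.89) and SLC33A1 (0.87). They are sparse, with 38, 45 and 91 reads of SMC5 in hearts 1, 2 and 3, for example. SMC5 belongs to a complex that guards chromosome structure and FZD8 is a Wnt receptor. Like CNN3, these 5 rows had no read in the atrium and sinoatrial region of the 3 hearts. They were picked over these same windows, so the shared empty windows are no separate result. MYL7 ranked 4751 of 4788 for CNN3, with r = -0.64.

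**Figure D5:**
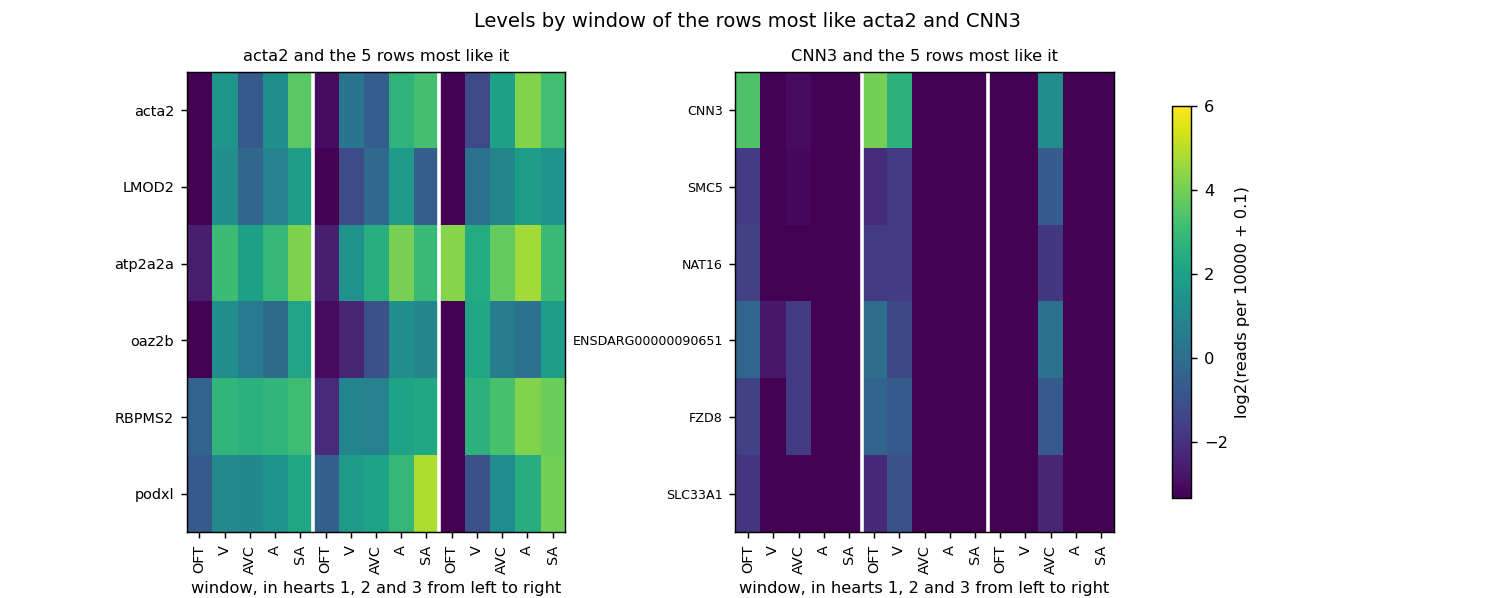
Levels, as log2(reads per 10000 + 0.1), of acta2 (left, top row) and CNN3 (right, top row) and of the 5 rows most like each, in the outflow tract (OFT), ventricle (V), AV canal (AVC), atrium (A) and sinoatrial region (SA) of hearts 1, 2 and 3. The dark column at the outflow tract of acta2 recurs in LMOD2 and oaz2b. Outflow tract levels reach 0.690 per 10000 in RBPMS2 (heart 1), 0.528 and 0.625 in podxl (hearts 1 and 2) and 19.7 in atp2a2a (heart 3). The dark atrial and sinoatrial columns of CNN3 recur in the rows below it. All these rows were picked over these same windows.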

How the data were processed

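Tomo-seq libraries of 3 hearts were used, each 1 animal. The authors deposited 1 table per heart, in which each count is a whole number of reads of a gene in a section. Reads had been mapped with BWA 0.6.2 per the submitters' notes, to Zv9 in the study's methods. Whether molecular identifiers were used is not given in the sources used here, so intervals and floors (3 reads) cover counting error only. Of the columns, 171 outside the tissue were not used. Sections 17 to 24 of heart 1 were put back in order as the labels ask.

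Reads were summed per window and heart, and levels are reads per 10000 gene reads. Hearts 2 and 3 were placed by the median sections of vmhc and myh6, weighted by reads per 10000. The plan was to weight by reads, which leaves heart 2 with no outflow tract section. The weights were changed after this was seen, and the planned placement was run as an alternative. Since vmhc and myh6 set these regions, their own levels there are no result.

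Rows with at least 10 reads over the 6 sums entered a negative binomial quasi-likelihood model with the heart as a block and trimmed mean factors, written in Python 3.11.15 (numpy 2.4.6, pandas 2.3.3, scipy 1.17.1), with variances squeezed by limma 3.58.1 in R 4.3.3 and Benjamini-Hochberg adjustment over all rows tested. Same-numbered sums come from the same animal, which is the pairing. A log2 difference against a region at 0 depends on the prior count of 0.5, and folds are then given as bounds. Where every sum of a region was 0, no spread of that row between hearts entered its test, and the spread came from other rows.

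The model was revised after results, those of acta2 and CNN3 included, had been seen. Of 3 versions, the first treated sums fitted at 0 as informative on the spread and failed on simulated data. The second corrected this and also asked for a minimum level in 2 or more sums. The third, reported here, has the correction and only the filter planned at the start. The versions differ on acta2 in the ventricle against the atrium, and the first 2 stand among the alternatives. On simulated data with 200 changed rows, the reported version gave an unadjusted p under 0.05 for 4.01% to 7.25% of unchanged rows. It recovered 81.2%, 68.5%, 75.0% and 30.0% of 256-fold changes in the outflow tract, ventricle, AV canal and sinoatrial comparisons, and at most 1.85% of 4-fold changes. The 256-fold size was added after smaller ones were hardly recovered.

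The members and gene lists were chosen with earlier results of these data known. Named genes are the members, up to 4 rows a list with the most reads, any list row past the test and the 5 rows most like each member. Symbols came from the reference name table for 12905 of 16023 rows (80.5%). Plots were drawn with matplotlib 3.10.9.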

Additional observations from a re-analysis of the deposited data

How the results depend on the processing

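Of 124 member tests under other settings, 92 kept their direction and their side of the threshold, 19 lost a call, 8 gained one and 5 turned sign. With heart left out as a block (no replicate block), 922, 373, 155 and 2291 rows were called in the outflow tract, ventricle, AV canal and sinoatrial comparisons in place of 156, 58, 16 and 7, acta2 in the canal had an adjusted p of 0.119, and CNN3 there turned sign (0.653). Without 1 heart the calls ranged from 0 to 295, 19 to 39, 9 to 16 and 2 to 48 in that order. The adjusted p of acta2 then ranged from 6.18e-12 to 0.993, 0.197 to 0.820, 0.00297 to 0.960 and 0.0120 to 0.825, and that of CNN3 from 4.13e-08 to 0.993 (with a turned sign without heart 1), 2.38e-05 to 0.588, 0.358 to 1 (turned without heart 3, at 1.00) and 3.88e-17 to 0.419.

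Median-of-ratios factors gave 31 calls in the outflow tract and 4 in the sinoatrial region, and 0.00919 for acta2 in the ventricle. Total gene reads gave 255 calls in the outflow tract and 35 in the canal, and 0.00577 for acta2 in the ventricle. No filter on low counts gave 39 calls in the outflow tract. Hearts 2 and 3 shifted by -1 section gave 88 calls in the outflow tract, 88 in the ventricle and 21 in the sinoatrial region, with acta2 in the ventricle at 0.0113, and a shift by +1 put acta2 in the canal at 0.880. Without shallow sections acta2 in the canal was at 0.0566, and without the dominant row acta2 in the ventricle was at 0.0483. In limma 1, 21, 1 and 4 rows were called, acta2 was at 0.905 in the outflow tract, 0.0183 in the ventricle and 0.347 in the canal, and CNN3 was at 0.262 in the ventricle, 0.409 in the sinoatrial region and 0.975, with a turned sign, in the canal.

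Of the alternatives that follow, the placement by raw reads was the plan, and the others were added after seeing the data. Hearts placed by raw reads gave 61 calls in the sinoatrial region, acta2 in the canal at 0.884 and CNN3 there with a turned sign at 0.864. With the 5 windows kept apart 13 rows were called in the ventricle, CNN3 there was at 0.506 and acta2 in the canal at 0.440. The minimum level in 2 or more sums (second version of the model) put acta2 in the ventricle at 0.0313. The spread not adjusted for sums at 0 (first version) gave 434, 1177, 0 and 6572 calls and put acta2 at 0.167 in the outflow tract and 0.336 in the canal. The cause of these differences was not tested. DESeq2 was not run. The outflow tract comparison had no value without shallow sections or with hearts placed by raw reads, since a heart then had no section there.

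Per 10000 gene reads, the mean shares of acta2 in the summed level of the 5 windows were 0.0453% in the outflow tract and 7.89% in the ventricle. They were 6.18% in the canal, 36.3% in the atrium and 49.6% in the sinoatrial region. Per 10000 spike-in reads, the shares were 0.775% in the outflow tract, 18.6% in the ventricle, 20.7% in the canal and 29.4% in the sinoatrial region. The sinoatrial share was thus lower with this scaling, and those of the ventricle and the canal were higher. The remaining share, that of the atrium, was then slightly above the sinoatrial share, so the order of the atrium and the sinoatrial region depends on the scaling. A shift by -1 section put the outflow tract share at 0.142%. The ventricular share of CNN3, 9.48% in the main setting, was 26.1% in the windows of the study and 61.8% with hearts placed by raw reads. Without 1 heart the shares ranged from 0 to 0.0680%, 3.68 to 11.4%, 3.13 to 7.80%, 25.0 to 47.7% and 40.7 to 60.5% for acta2 from the outflow tract to the sinoatrial region, and from 35.8 to 85.7%, 0 to 14.2% and 0.0970 to 50.1% for CNN3 from the outflow tract to the canal. On the log2 scale the correlation of acta2 and CNN3 was -0.41 in heart 1 and 0.18 in heart 3. Depth limits the outflow tract window of heart 3. Its 14700 gene reads allow 2.04 per 10000, by counting error alone, for a gene with no read.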
